A study of Mus musculus with 8 samples.

Results

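The 10 genes described here are markers of natural killer (NK) cells and of the killing machinery that NK cells share with cytotoxic T cells: the receptor genes Ncr1, Klrb1c, Klrk1 and Klrd1, the granule genes Gzma, Gzmb, Prf1 and Nkg7, the transcription factor gene Eomes and the cytokine gene Ifng. They were chosen by name, and all 10 were found, each on 1 row, among the 19129 genes analysed. RNA was sequenced from pancreatic tumour isografts, that is mouse tumour material transplanted into mice, with 1 library from each of 8 mice. The 4 control libraries come from mice for which the sources used here give no treatment, and the 4 libraries labelled MEKi come from mice given trametinib, which blocks the ERK-activating kinases MEK1 and MEK2, for 7 days. The genotype of the tumour cells, the strain, sex and age of the hosts and the dose are not given in those sources either. The samples are whole tumour pieces, so for every gene below fewer cells of a type and less RNA per cell cannot be told apart. Values are the authors' variance-stabilised values on a log2-like scale, on which equal differences stand for larger fold changes in genes with few reads than in abundant ones, and a gene with 0 reads has a value of 5.12.

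NK cells are lymphocytes that kill tumour cells without prior priming, when signals from activating receptors outweigh those from inhibitory receptors that bind MHC class I. Killing is carried out by granules that hold the pore-forming protein perforin and the granzyme proteases, and CD8 T cells use the same granules. Activated NK cells and T cells also secrete interferon gamma, which raises antigen presentation and induces chemokines that recruit further lymphocytes. Of the proteins encoded by the 10 genes, NKp46 (Ncr1) and NK1.1 (Klrb1c) are largely restricted to NK cells and related innate lymphocytes, whereas the others are also made by activated T cells.

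Reads in the genes analysed numbered 20090101 to 38569550 per library. The libraries differed in make-up within each label. Dusp6, a gene switched on by ERK activity and therefore a check on MEK inhibition, ranged from 9.24 to 12.19 in the control libraries and from 8.88 to 12.20 in those labelled MEKi, so the differences below are between labels. Digestive enzyme genes of acinar cells had a list mean of 14.81 in control replicate 2 and 16.48 in control replicate 3, against 5.97 to 11.11 in the other 6 libraries. T cell markers were present in every library, with list means of 7.96 to 9.01 under the control label and 7.64 to 8.83 under the MEKi label, and none of the 20 genes was at 0 reads in all libraries. Mast cell markers, which matter here because mast cells can also express granzyme B, had list means of 6.99 to 7.32 and 6.73 to 7.15.

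None of the 10 genes differed between the labels beyond the spread between mice. Limma called 0 of 10 after Benjamini-Hochberg adjustment over all 19129 genes, where it called 0.00523% of all genes (1 gene, lower under the MEKi label). At an unadjusted p under 0.05 it again found 0 of 10, against 1.77% of all genes, and for 0 of 10 did the values of the 2 labels fall apart without overlap, against 1.27% of all genes. Means were higher under the MEKi label for 7 of the 10 genes, against 51.6% of all genes, and lower for 3, against 48.4%, and the median difference was 0.07, against 0.01 for all genes. The split of signs rested on single libraries, since 7 of the 10 were lower without control replicate 3, without MEKi replicate 3 or with the acinar mean as a covariate. Gzmb and Gzma lay furthest below 0, at -0.75 and -0.51, and Eomes lay furthest above, at 0.35.

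**Figure D1:**
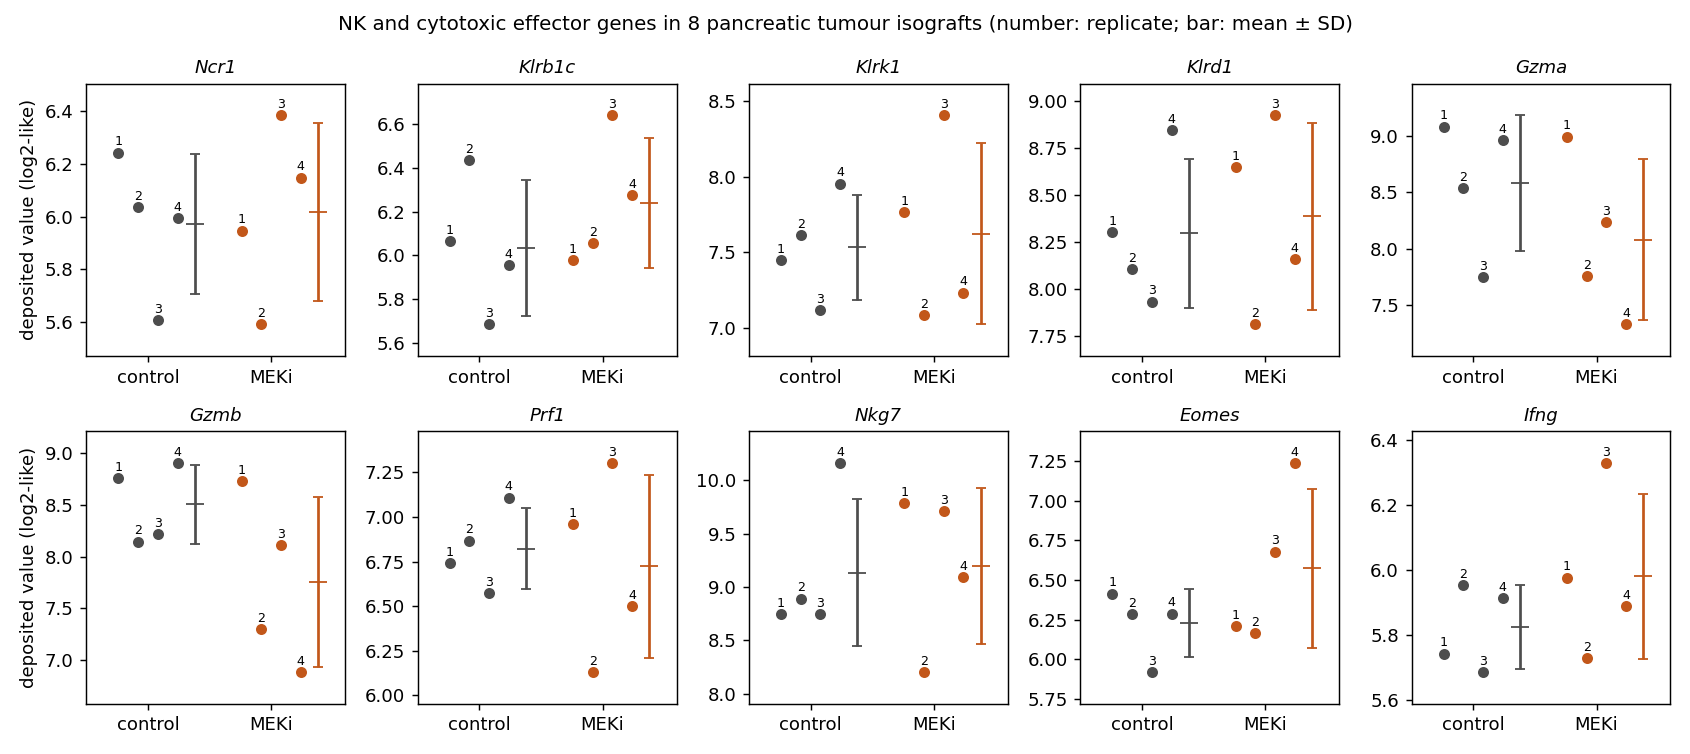
Deposited log2-like value of each gene in each library, control in grey and MEKi in orange, with the replicate number over each point and the mean ± SD (n = 4) beside each group; each panel has its own vertical scale. The groups overlap in every panel, and MEKi replicate 2 is at or near the bottom of most panels while MEKi replicate 3 is at the top of 6.

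Of the receptors, Ncr1 encodes the activating receptor NKp46 and is the most specific NK cell marker of the set. Its values were 6.24, 6.04, 5.61 and 6.0 among the controls (replicates 1 to 4 in order, as in all such sentences), against 5.95, 5.59, 6.38 and 6.15 among the MEKi libraries. These rest on 20, 17, 3 and 11 reads under the control label and 13, 3, 35 and 29 under the MEKi label. Each label therefore held a library close to the detection limit, control replicate 3 and MEKi replicate 2, and the difference between labels was 0.05 (SE 0.19, 95% interval -0.38 to 0.48; limma adjusted p = 1).

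Klrb1c encodes NK1.1, the antigen by which mouse NK cells are commonly sorted. It had 14, 36, 4 and 10 reads among the controls, against 14, 12, 52 and 37 reads in the MEKi libraries, which gave values of 6.06, 6.43, 5.69 and 5.96, against 5.98, 6.06, 6.64 and 6.27. Control replicate 3 was the lowest library and MEKi replicate 3, as for Ncr1, the highest, and the labels overlapped (difference 0.20, SE 0.19, 95% interval -0.23 to 0.64). The reads of Klrb1c are less certain than those of the other receptors, because 13.9% of its exon bases overlap the gene model Gm44511 on the same strand and the sources used here do not give the counting rule.

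Klrk1 encodes the activating receptor NKG2D, which binds stress-induced ligands on tumour cells and is present on NK cells and CD8 T cells. Its values were 7.45, 7.61, 7.12 and 7.96 among the controls, against 7.77, 7.08, 8.41 and 7.23 among the MEKi libraries. MEKi replicate 3 was the highest and MEKi replicate 2 the lowest library, so the MEKi label spanned the control values on both sides (difference 0.09, SE 0.30, 95% interval -0.58 to 0.76). Klrd1 encodes CD94, the partner chain of NKG2A and its close relatives but not of NKG2D. Klrd1 had values of 8.30, 8.10, 7.93 and 8.84 among the controls, against 8.65, 7.81, 8.92 and 8.16 among the MEKi libraries. The same 2 libraries marked its ends, and its difference was 0.09 (SE 0.27, 95% interval -0.53 to 0.70).

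Among the granule genes, Gzmb encodes granzyme B, which cleaves after aspartate and activates caspases in the target cell. Its values were 8.76, 8.14, 8.22 and 8.91 among the controls, against 8.73, 7.30, 8.11 and 6.88 among the MEKi libraries, from 330, 253, 170 and 342 reads and from 393, 75, 259 and 92 reads. MEKi replicates 2, 3 and 4 were below every control library, but MEKi replicate 3 only by a small margin, and MEKi replicate 1 was among the high controls. Control libraries had a mean of 8.51 ± 0.38 and MEKi libraries one of 7.75 ± 0.83 (SD, n = 4 each), and reads scaled by size factor averaged 0.588 times those of the controls. The difference of -0.75 (SE 0.38, 95% interval -1.60 to 0.09) had an exact permutation p of 0.114, two-sided over 70 relabellings whose smallest possible p is 0.0286, and was not called by limma (unadjusted p = 0.0753, adjusted p = 1).

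Gzma encodes granzyme A, a tryptase-like granule protease. It had values of 9.09, 8.54, 7.75 and 8.97 among the controls, against 9.0, 7.75, 8.24 and 7.32 among the MEKi libraries. High and low libraries occurred under both labels, with MEKi replicate 4 the lowest of all, and the means were 8.58 ± 0.61 and 8.08 ± 0.72 (SD, n = 4), with scaled reads at 0.681 times the control level. The difference was -0.51 (SE 0.39, 95% interval -1.38 to 0.36; exact permutation p = 0.343; limma adjusted p = 1).

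Both granzyme differences moved with the libraries and covariates that entered. With the acinar list mean as a covariate the differences were -1.16 for Gzmb and -0.99 for Gzma. The unadjusted limma p was then 0.0165 for Gzmb and 0.0249 for Gzma, with the T cell mean as a covariate it was 0.0317 and 0.156, and without MEKi replicate 1 it was 0.0086 and 0.0456, while the smallest adjusted p of any of the 10 genes over all alternatives was 0.984. In the other alternatives neither granzyme gene passed the unadjusted threshold of 0.05 in limma. Without MEKi replicate 4 the difference of Gzmb was -0.46 and that of Gzma -0.26. With array weights, under which less typical libraries count less, the differences were -0.49 for Gzmb and -0.25 for Gzma. Mast cell marker means were lowest in MEKi replicates 2 and 4 (6.73 and 6.90), the libraries with the lowest Gzmb values, against 6.99 to 7.32 in the other 6. Neutrophil marker means were lowest in the same libraries (8.69 and 7.97), against 9.15 to 9.87 in the other 6. The part of either cell type in the granzyme values was not tested.

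Prf1 encodes perforin, the pore-forming protein through which granzymes reach the target cell. Its values were 6.74, 6.87, 6.57 and 7.11 among the controls, against 6.96, 6.13, 7.30 and 6.5 among the MEKi libraries. The MEKi libraries again spanned the control values, from 14 reads in MEKi replicate 2 to 118 in MEKi replicate 3 (difference -0.10, SE 0.25, 95% interval -0.66 to 0.46). Nkg7 encodes a membrane protein of cytotoxic granules needed for their release. It was at 8.74, 8.89, 8.74 and 10.16 among the controls, against 9.79, 8.20, 9.71 and 9.09 among the MEKi libraries. Control replicate 4 stood well above the other 3 control libraries, and without it the difference moved from 0.06 (SE 0.41, 95% interval -0.86 to 0.98) to 0.40.

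Eomes encodes a T-box transcription factor that mature NK cells require and that memory CD8 T cells also use. The values were 6.41, 6.29, 5.92 and 6.29 among the controls, against 6.21, 6.16, 6.68 and 7.24 among the MEKi libraries. MEKi replicate 4, with 141 reads against 8 to 55 in the other libraries, set the difference of 0.35 (SE 0.24, 95% interval -0.19 to 0.88), which was 0.12 without it. Ifng, the interferon gamma gene, had the fewest reads of the set, with 6, 14, 4 and 9 among the controls, against 14, 5, 32 and 16 among the MEKi libraries. Its values of 5.74, 5.95, 5.69 and 5.91 and of 5.98, 5.73, 6.33 and 5.89 overlapped, with MEKi replicate 3 the highest (difference 0.16, SE 0.14, 95% interval -0.16 to 0.48). The gene model Gm49751 overlaps 25.9% of the Ifng exon bases on the same strand, which makes its reads uncertain in the same way as those of Klrb1c.

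**Figure D2:**
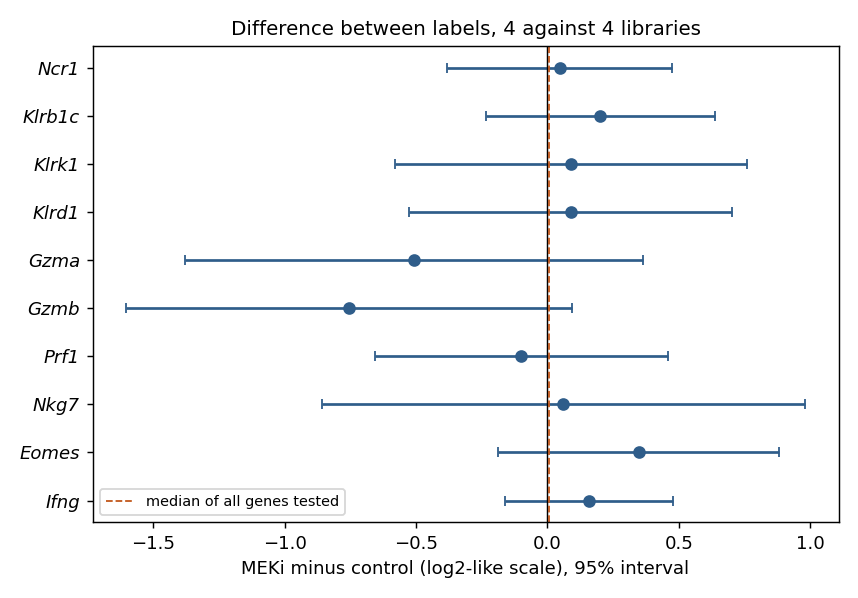
Difference between the labels, MEKi minus control, for each gene on the log2-like scale, with the 95% interval from limma (4 against 4 libraries); the dashed line is the median of all genes tested. All 10 intervals include 0, and that of Gzmb, -1.60 to 0.09, lies furthest to the left.

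The promoters of these genes were examined as a description only. Any part of shared promoter letters in how the genes varied together over the tumours was not tested. RefSeq promoters (GRCm38.p6, 250 bases before to 50 bases after the start) were at hand for 9 of the 10 genes. The letters TGTGGT, the core bound by RUNX factors such as RUNX3, which drives cytotoxic programmes in CD8 T cells and NK cells, occurred on either strand in 7 of the 9, against 16.9% of 27025 promoters. These letters were chosen after the genes were known, and a match is a description and not a site. The windows below are read along the strand of the gene, 5′ to 3′, with the match in capitals; ACCACA is the same core on the other strand, and 1 window is shown for each of 5 genes and 2 for Gzmb.
Ncr1 (chr7:4337524-4337559, plus strand): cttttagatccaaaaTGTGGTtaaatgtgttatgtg
Klrb1c (chr6:128788710-128788745, minus strand): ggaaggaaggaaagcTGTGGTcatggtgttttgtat
Klrk1 (chr6:129623973-129624008, minus strand): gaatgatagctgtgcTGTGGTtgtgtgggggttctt
Gzma (chr13:113101011-113101046, minus strand): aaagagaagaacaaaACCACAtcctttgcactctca
Gzmb upstream (chr14:56262407-56262442, minus strand): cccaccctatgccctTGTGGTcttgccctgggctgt
Gzmb near the start (chr14:56262348-56262383, minus strand): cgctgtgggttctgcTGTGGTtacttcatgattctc
Prf1 (chr10:61297691-61297726, plus strand): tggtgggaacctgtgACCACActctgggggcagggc

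Between its 2 RUNX cores the Gzmb promoter also held the AP-1 letters TGANTCA, the element bound by Fos and Jun proteins, and Klrk1 held them just after its start, so that 2 of 9 promoters matched against 7.93% of all promoters. The T-box letters GGTGTGA, bound by factors of the family of Eomes and T-bet, occurred in 1 of 9, that of Nkg7, against 3.96%. The windows with the AP-1 letters in capitals are shown because Fos and Jun proteins are induced in activated lymphocytes.
Gzmb AP-1 (chr14:56262371-56262407, minus strand): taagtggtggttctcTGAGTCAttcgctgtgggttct
Klrk1 AP-1 (chr6:129623826-129623862, minus strand): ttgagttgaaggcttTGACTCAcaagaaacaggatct

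The genes lie on 6 chromosomes of GRCm38, counted from 1 in the GENCODE annotation. The NK gene complex on chromosome 6 holds Klrb1c (128778485 to 128789215), Klrd1 (129591782 to 129598775) and Klrk1 (129610323 to 129623864), the last 2 close together on opposite strands. Chromosome 7 holds Ncr1 (4337724 to 4345164) and Nkg7 (43437073 to 43438249), and chromosome 10 holds Prf1 (61297833 to 61304680) and Ifng (118441046 to 118445892). Gzma lies on chromosome 13 (113093825 to 113100981), Gzmb on chromosome 14 (56258838 to 56262260) and Eomes on chromosome 9 (118478212 to 118486132).

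Levels were compared between genes as reads scaled to annotated exon length and library size (RPKM), over all 8 libraries. Nkg7 had the highest level, 24.4 ± 13.7 RPKM (SD, n = 8), followed by Gzma at 11.2 ± 6.14, Klrd1 at 8.33 ± 3.44 and Gzmb at 6.63 ± 3.68. Neighbours within this upper group did not differ beyond their spread, as their ranges overlapped and the order held in 7, 6 and 6 of 8 libraries. Prf1 followed at 0.828 ± 0.415 RPKM, below Gzmb in 8 of 8 libraries with no overlap of their ranges.

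The lower group ran from Prf1 through Klrk1 at 0.755 ± 0.401 RPKM, Ncr1 at 0.376 ± 0.227, Ifng at 0.345 ± 0.214 and Eomes at 0.316 ± 0.25 to Klrb1c at 0.263 ± 0.164. Klrk1 was above Ncr1 in 8 of 8 libraries, while the order of the other neighbours held in 4 to 6 of 8, and all of these ranges overlapped. The annotated exons of Klrk1 span 7183 bases, against 3259 in its longest transcript, so its level per length is the least certain. The NK-restricted genes Ncr1 and Klrb1c were thus in the lower group with Ifng and Eomes, and their totals over the 8 libraries were 131 and 179 reads, against 4722 for Nkg7.

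Over both labels together, the 8 tumours differed by more than counting error. The squared deviation of reads from a rate shared by all 8 libraries was 134 times that of counting noise for Nkg7. It was 84.4 times for Gzma, 76.5 times for Gzmb, 3.94 times for Ifng and 4.38 times for Ncr1. This measure grows with the number of reads, so it does not rank the genes by how much the tumours differed. The fold of the highest over the lowest library, in reads scaled to library size, was 4.98 for Nkg7, 4.67 for Gzma and 7.14 for Gzmb. For Ifng and Ncr1 it was 5.95 and 8.67, both from few reads. Reads of the 10 genes together, scaled to library size (RPM), were 66.2, 51.6, 35.0 and 109 among the controls, against 90.1, 30.1, 88.0 and 45.6 among the MEKi libraries. A high and a low library were found under each label: 8 of the 10 genes were above their own mean in control replicate 4 and in MEKi replicate 3, against 1 in control replicate 3 and 0 in MEKi replicate 2.

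Most pairs of genes varied in the same direction over the 8 tumours. Of the 45 pairs, 41 had a positive Pearson correlation, with a median r of 0.56 and a range of -0.54 to 0.94. After Benjamini-Hochberg adjustment over the 45 pairs, exact permutation tests over all 40320 pairings called 6 pairs by Pearson's r and 1 by Spearman's rho. The pair called by both was Klrk1 with Prf1, an activating receptor and the pore protein (r = 0.94, rho = 0.98; exact adjusted p = 0.0167 and 0.0179).

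Klrk1, Klrd1, Prf1 and Nkg7 made up most of the called pairs. Klrk1 with Klrd1 had r = 0.93 and rho = 0.93 (exact adjusted p for r = 0.0167), Klrd1 with Nkg7 had r = 0.93 and rho = 0.86 (0.0172), Klrd1 with Prf1 had r = 0.91 and rho = 0.88 (0.0172), and Klrk1 with Ifng had r = 0.89 and rho = 0.88 (0.0288). Without the 2 libraries farthest from the median of the first gene, r was 0.98 for Klrk1 with Prf1, 0.89 for Klrk1 with Klrd1, 0.90 for Klrd1 with Nkg7, 0.80 for Klrd1 with Prf1 and 0.69 for Klrk1 with Ifng. With 1 library left out at a time, Klrk1 with Prf1 was called in 6 of 8 settings, Klrk1 with Klrd1 in 4, Klrd1 with Prf1 in 3, and the other called pairs of this group in 2 each, although r did not fall below 0.86 except for Klrk1 with Ifng (0.76 without MEKi replicate 3).

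Over all 8 libraries Gzma and Gzmb varied with each other more closely than with the remaining genes in value. Their correlation was r = 0.90 and rho = 0.79 (exact adjusted p = 0.0172 for r and 0.126 for rho), 0.82 without the 2 libraries farthest from the median of Gzma, and it was called in 1 of 8 settings with a library left out. Without those 2 libraries, control replicate 1 and MEKi replicate 4, r of Gzma with Nkg7 was also 0.82. With Klrd1, the r of Gzma was 0.57 and that of Gzmb 0.55 (exact adjusted p = 0.288 and 0.291). For deviations from the label means, r was 0.68 for Gzma with Klrd1, 0.75 for Gzmb with Klrd1 and 0.90 for Gzma with Gzmb. All 4 negative pairs joined a granzyme gene to Eomes or Klrb1c: Gzmb with Eomes at -0.54, Gzma with Eomes at -0.35, Gzmb with Klrb1c at -0.29 and Gzma with Klrb1c at -0.06, with exact adjusted p of 0.291, 0.55, 0.618 and 0.88. Without the 2 libraries farthest from the granzyme median, MEKi replicate 4 among them, r with Eomes was -0.07 for Gzmb and 0.30 for Gzma. Without control replicate 3 and MEKi replicate 3, farthest from the Klrb1c median, r with Klrb1c was -0.48 for Gzmb and -0.43 for Gzma. The most NK-restricted genes, Ncr1 and Klrb1c, had r = 0.72 (exact adjusted p = 0.163), and Ncr1 with Eomes had r = 0.66 and rho = 0.88 (exact adjusted p = 0.193 and 0.0652). Differences between these correlations were not tested.

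**Figure D3:**
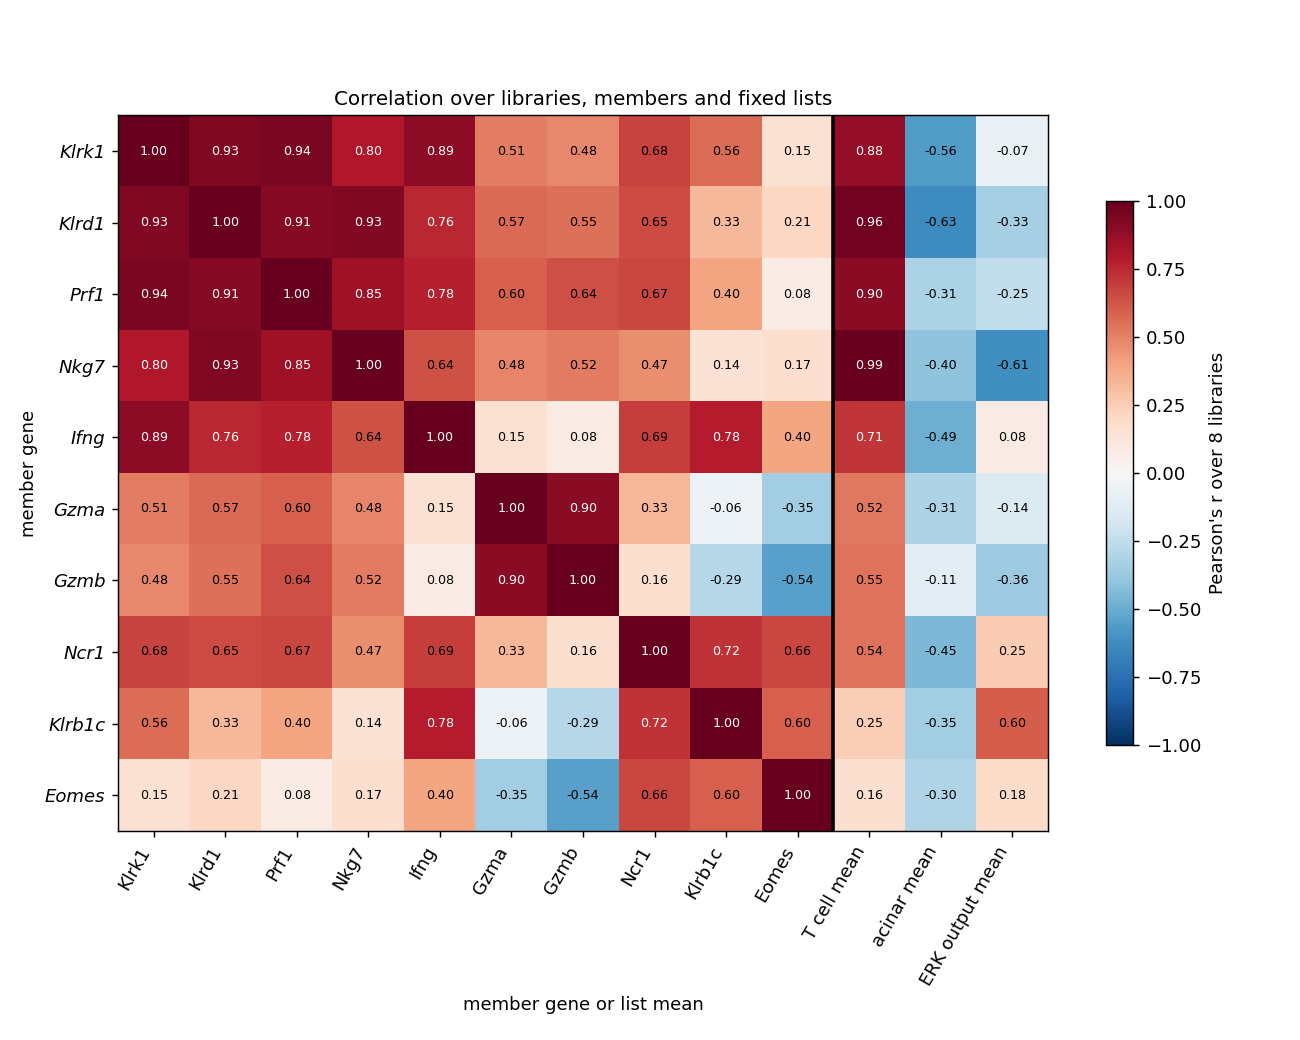
Pearson's r over 8 libraries between each pair of genes and, right of the black line, with the mean of the T cell, acinar and ERK output lists; red is positive, blue negative. Klrk1, Klrd1, Prf1 and Nkg7 form a dark block at the top left with r of 0.80 to 0.94, Gzma and Gzmb a smaller one at 0.90, and the T cell column is darkest for Nkg7 at 0.99.

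Several of the genes followed the T cell marker level of the tumours. Over the 8 libraries the mean of the 20 T cell markers correlated with Nkg7 at r = 0.99 (rho = 0.95, exact adjusted p = 0.00521 and 0.0171, over 30 relations), with Klrd1 at 0.96 (rho = 0.88, 0.00819 and 0.0543), with Prf1 at 0.90 (rho = 0.90, 0.0231 and 0.0456) and with Klrk1 at 0.88 (rho = 0.95, 0.0339 and 0.0171). Without control replicate 4 and MEKi replicate 3, the 2 libraries farthest from the median, r was 0.99, 0.93, 0.85 and 0.85. The call for Nkg7 held in 8 of 8 settings with a library left out, that for Klrd1 in 7, that for Prf1 in 3 and that for Klrk1 in 2.

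The remaining genes were not called against the T cell mean. For Ifng r was 0.71 (rho = 0.83, exact adjusted p = 0.22 and 0.0923), for Gzmb 0.55, for Ncr1 0.54 and for Gzma 0.52 (exact adjusted p = 0.46 each), for Klrb1c 0.25 (0.693) and for Eomes 0.16 (0.82). The T cell means were not evenly spread, since control replicate 4, MEKi replicate 1 and MEKi replicate 3 lay at 8.69 to 9.01 and the other 5 libraries at 7.64 to 8.18. Among those 5 libraries Nkg7 was 8.20 in MEKi replicate 2, with the lowest T cell mean, 8.74 in both control replicates 1 and 3, 9.09 in MEKi replicate 4 and 8.89 in control replicate 2; groups of this size are too small for a correlation of their own.

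**Figure D4:**
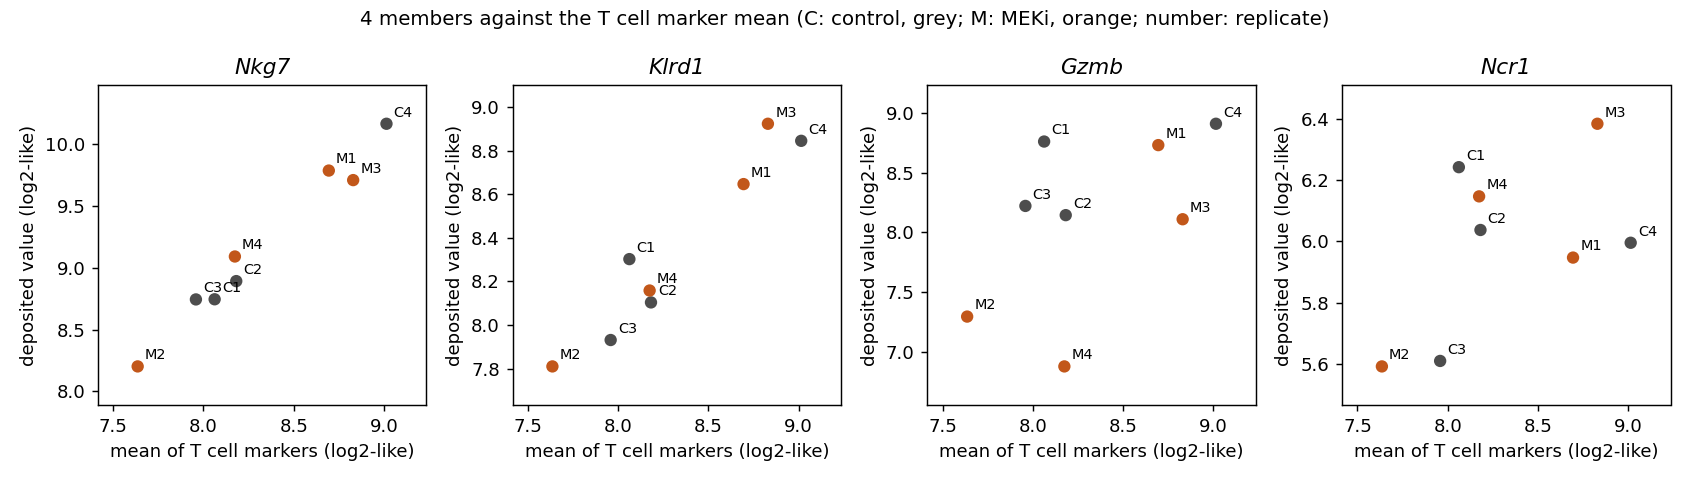
Deposited value of Nkg7, Klrd1, Gzmb and Ncr1 against the mean of 20 T cell markers, both log2-like, 1 point per library with its label (C control, M MEKi) and replicate number. Nkg7 and Klrd1 rise with the T cell mean (r = 0.99 and 0.96), while for Gzmb MEKi replicates 2 and 4 lie below the other 6 libraries and for Ncr1 the points are scattered.

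Neither acinar content nor ERK output had a called relation with any of the 10 genes. With the acinar mean r was negative for 10 of 10 genes, from -0.63 for Klrd1 to -0.11 for Gzmb (smallest exact adjusted p = 0.452). With the mean of 15 ERK output genes r was positive for 4 of 10, from -0.61 for Nkg7 to 0.60 for Klrb1c (smallest exact adjusted p = 0.452). The signs against ERK output rested on control replicate 4 and MEKi replicate 1, the 2 libraries farthest from its median: without them r was positive for 9 of 10 genes, with Nkg7 at -0.10, Gzma at 0.58 instead of -0.14 and Gzmb at 0.15 instead of -0.36. Without the 2 libraries farthest from the acinar median, control replicates 2 and 3, r stayed negative for 9 of 10 genes and was 0.44 for Eomes. The sign of the difference between labels for Ncr1, Klrk1, Klrd1 and Nkg7 turned negative when the acinar-rich control replicates 2 and 3 were left out, and none was called with or without them.

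Granzyme reads were also set against reads of Klrd1, a receptor shared by NK cells and cytotoxic T cells, in a measure chosen after the values were seen and given with no test. Gzmb reads per Klrd1 read were 1.47, 1.04, 1.3 and 1.05 among the controls, against 1.07, 0.595, 0.505 and 0.266 among the MEKi libraries. MEKi replicates 2, 3 and 4 were below every control library, while MEKi replicate 1 was within the control range. Gzma reads per Klrd1 read were 1.91, 1.45, 0.840 and 1.10 against 1.33, 0.944, 0.565 and 0.445, with an overlap made by control replicate 3 and MEKi replicate 1. Prf1 reads per Klrd1 read were 0.196, 0.275, 0.214 and 0.197 among the controls, against 0.193, 0.111, 0.230 and 0.156 among the MEKi libraries. MEKi replicates 1, 2 and 4 were below every control library, replicate 1 by a small margin, and MEKi replicate 3 was within the control range. Nkg7 overlapped more widely, with 1.45 to 2.74 reads per Klrd1 read under the control label and 1.43 to 2.44 under the MEKi label. Eomes had 0.408 reads per Klrd1 read in MEKi replicate 4 and 0.0611 to 0.12 in the other 7 libraries.

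**Figure D5:**
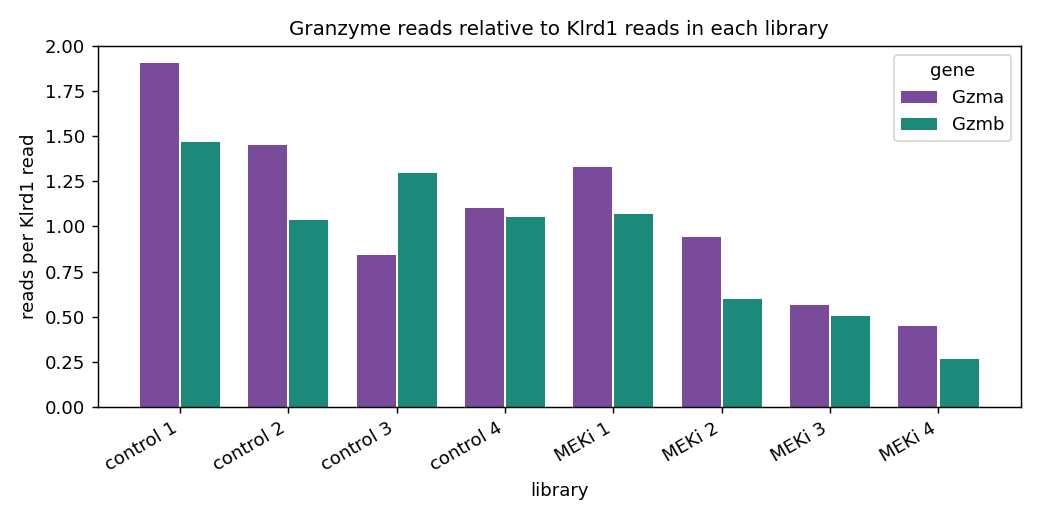
Reads of Gzma (purple) and Gzmb (green) per read of Klrd1 in each of the 8 libraries, 4 control and 4 MEKi, as bars from 0 with no error bar because each is a single library. The Gzmb bars of MEKi replicates 2, 3 and 4 stand at 0.266 to 0.595, below the 1.04 to 1.47 of the control libraries, and MEKi replicate 1 stands at 1.07.

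Other NK receptor and adaptor genes were likewise not called. Of 29 measured genes 16 were higher and 13 lower in sign under the MEKi label, 0 were called, and the median difference was 0.05. The smallest p belonged to Klra9, an Ly49 receptor gene with 0 to 6 reads in the control libraries and 3 to 17 among the MEKi libraries (difference 0.31, SE 0.14; limma adjusted p = 1), the 1 gene of the list at an unadjusted p under 0.05. Klrc1, whose product NKG2A pairs with CD94 as an inhibitory receptor, was at 8.47 ± 0.12 and 8.45 ± 0.30 (SD, n = 4), and Klrc2, the related NKG2C gene, at 7.15 ± 0.23 and 7.08 ± 0.32. Hcst, which encodes the DAP10 adaptor that signals for NKG2D, was at 7.19 ± 0.36 and 6.99 ± 0.39, and Tyrobp, the DAP12 adaptor gene also used by myeloid cells, differed by -0.10 (SE 0.17). Of the Klrb1c paralogs, Klrb1b differed by 0.34 (SE 0.28), Klrb1f by -0.12 (SE 0.14) and Klrb1a by 0.01 (SE 0.12).

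Other granule proteins and death ligands divided evenly, 8 higher and 8 lower in sign of 16 measured, with 0 called and a median difference of -0.01. Srgn, the proteoglycan that packs granzymes, had the smallest p (difference -0.49, SE 0.24; limma adjusted p = 1). Reads of the closely related Gzmc, Gzmd and Gzme are uncertain, since the counting could split them between copies. Granzyme genes other than the pair above did not share its sign throughout: the difference was -0.09 for Gzmc (SE 0.26), -0.26 for Gzmd (SE 0.25), -0.30 for Gzme (SE 0.67), 0.08 for Gzmk (SE 0.20) and 0.18 for Gzmm (SE 0.18). Transcription factors of NK and effector cells divided 6 to 6 with 0 of 12 called, Nfil3, needed for NK cell development, having the smallest p (difference -0.35, SE 0.21). Tbx21, which encodes T-bet and acts beside Eomes, was at 6.44, 6.82, 6.47 and 7.41 among the controls, against 6.99, 6.20, 7.43 and 6.33 among the MEKi libraries, so that MEKi replicate 4, the highest library for Eomes, was among the lowest for Tbx21.

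Signals that activate or recruit these cells, and the responses to them, were also not called. Of 17 such cytokine, chemokine and receptor genes 12 were higher and 5 lower in sign, with 0 called and a median difference of 0.11. Cx3cl1, a chemokine gene named after its values were seen, had higher values in the MEKi libraries without overlap (difference 0.16, SE 0.09). Il15, the survival cytokine of NK cells, differed by 0.15 (SE 0.17), and Cxcl9, an interferon-induced chemokine, by 0.34 (SE 0.39). Ligands of NK receptors were higher in sign for 8 of 13, with 0 called and a median of 0.05. H2-T23, whose product Qa-1 is the ligand of CD94 with NKG2A, had the smallest p of them (difference 0.37, SE 0.25).

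Interferon gamma receptor and response genes were higher in sign under the MEKi label for 18 of 20, with a median difference of 0.25 and 0 called by limma, also at an unadjusted p under 0.05. Nos2, the inducible nitric oxide synthase gene, was 1 of the 2 lower genes and had the smallest p (difference -0.71, SE 0.35). The high libraries for the list mean were control replicate 4 at 11.12 and MEKi replicate 3 at 11.30, which were also high for the cytotoxic genes, and control replicate 3 was the lowest at 10.14. Of the T cell markers 11 were higher and 9 lower in sign with 0 of 20 called. Cd3e, part of the T cell receptor complex, was at 8.35 ± 0.48 and 8.17 ± 0.55 (SD, n = 4). Markers of other cells had 0 called as well: 9 of 9 B cell genes were higher in sign (median difference 0.39), whereas 11 of 12 macrophage genes (-0.21), 7 of 7 neutrophil genes (-0.59), 6 of 7 mast cell genes (-0.20), 14 of 14 acinar genes (-3.96) and 6 of 10 tumour epithelial genes (-0.04) were lower, and 11 of 15 ERK output genes were higher (0.17). The part of these cells in the values of the cytotoxic genes was tested only through the acinar and T cell means.

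The 8 genes outside the set whose pattern over the 8 libraries was most like the mean of the 10 centred genes, among 16665 genes compared, were Slc28a2 (r = 0.98), Foxp3 (0.97), 1600014C10Rik (0.97), Itgal (0.97), Gimap6 (0.96), Lat (0.96), Art2b (0.96) and Gimap8 (0.96). They were ranked by this correlation, so it is a description with no test. Slc28a2 encodes a nucleoside transporter, and its values ran from 7.39 in MEKi replicate 2 to 8.66 in MEKi replicate 3. Foxp3, the factor that defines regulatory T cells, ran from 6.06 to 7.31 between the same libraries. Itgal encodes the alpha chain of the leukocyte integrin LFA-1, Lat an adaptor of the T cell receptor that is also on the T cell marker list, and Gimap6 and Gimap8 belong to a GTPase family expressed in lymphocytes.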

How the data were processed

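Libraries were made from total RNA with a strand-specific kit, per the labels' protocols, and the authors used STAR 2.5.3a, DESeq2 1.18.1 and GRCm38, per the submitters' processing notes. The sources used here give no annotation, counting rule or strand setting. The deposited values are on a log2-like scale that the authors stabilised for variance, as the name of the table and the values show. Inverting the transformation from its floor gave whole reads for 100% of values (within 0.01), used for reads, RPKM and voom. Of 19431 rows, 32 named no gene (0.101% to 0.167% of reads) and were left out, and 86 repeated symbols were reduced to their most abundant row, leaving 19129 genes with at least 25 reads in all.

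The test across genes was limma-trend (limma 3.58.1, R 4.3.3; two-sided, no covariate), with Benjamini-Hochberg adjustment over 19129 genes and a threshold of 0.05, 4 against 4 libraries grouped by title. Correlations used exact permutations in Python 3.11.15 with scipy 1.17.1. The scripts were tested on simulated data. The genes described and the 14 lists beside them (211 of 221 entries measured) were chosen with earlier results of these data known. Genes named from a list are those past the threshold or else the one with the smallest p, with partners and paralogs named by role. The alternatives were moderation, normalization, filtering, weights, voom, acinar or T cell covariates, a replicate block and leaving libraries out; leaving out both acinar-rich controls was chosen after seeing the data. Promoter sequences are from RefSeq (GRCm38.p6), other coordinates from GENCODE (GRCm38). The closest libraries, control replicate 4 and MEKi replicate 1, differed by 4.38 times the sampling noise. MEKi replicate 4 lay farthest from the others, at 19.6 to 37.8 times. The rule for named genes also selected 2 genes that are not reported here.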

Additional observations from a re-analysis of the deposited data

Results flagged for a closer look

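Nkg7 in control replicate 4 had a value of 10.16, far from the other 3 control libraries: its gap to the nearest of them was 0.896 of the range of the 4, above Dixon's 95% critical value for 4 samples. This was the 1 outlier among 20 groups examined (10 genes under 2 labels), and chance alone flags about 1 group in 20. The same library had the highest T cell marker mean, 9.01, and the highest Cd8a value, 11.06; their part in the Nkg7 value was not tested.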

How the results depend on the processing

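None of the 10 genes was called by limma in any setting tried. The number of genes called over the whole table was 1; it was 0 with the 75% of genes of highest mean, with the acinar mean or the T cell mean as a covariate and with the replicate block, 4 without control replicates 2 and 3, and 0 to 2 with 1 library left out. Labels tie no replicate numbers together, the deviations of same-numbered libraries correlated at -0.46 to 0.20 over genes, and the replicate block changed no call among the 10 genes. Differences reversed to a negative sign for Ncr1 with array weights (-0.0049), with the acinar covariate (-0.11) and without control replicates 2 and 3 (-0.10); in the last 2 settings also for Klrk1 (-0.23 and -0.079), Klrd1 (-0.24 and -0.19) and Nkg7 (-0.28 and -0.26). On the scale of voom, which pulls genes with few reads together less, the differences of Klrb1c, Eomes and Ifng were 0.57, 0.82 and 0.51. With 1 library left out, differences ran from -0.076 to 0.19 for Ncr1, -0.17 to 0.27 for Klrk1, -0.091 to 0.28 for Klrd1, -0.29 to 0.10 for Prf1, -0.14 to 0.40 for Nkg7, -0.81 to -0.26 for Gzma, -1.08 to -0.46 for Gzmb, 0.07 to 0.33 for Klrb1c, 0.12 to 0.48 for Eomes and 0.04 to 0.24 for Ifng. Of the 45 pairs, 6 were called with all libraries, 0 to 7 with 1 left out, and 0 without control replicates 2 and 3, where 6 libraries remain; of the 30 relations to lists the counts were 4, 1 to 5 and 0. With 6 libraries the exact test has too few pairings for any 1 pair alone to be called after adjustment over the 45 pairs. In that setting r was 0.88 to 0.99 for the 6 pairs called with all libraries. It was also 0.88 to 0.99 for the 4 relations to lists called with all libraries. The causes of the changes in these counts were not tested. Ncr1, Klrb1c, Ifng and Eomes have few reads, and the highest-mean filter removed them.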

Other observations

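In MEKi replicate 4 the T cell genes did not move together, a pattern noticed after the values were seen and given with no test. Cd8a, the co-receptor gene of cytotoxic T cells, was at 9.58, 9.58, 9.39 and 11.06 among the controls, against 10.64, 8.87, 10.34 and 8.42 among the MEKi libraries. Cd4, the co-receptor gene of helper and regulatory T cells, was at 7.99, 8.36, 7.85 and 9.12 and at 8.85, 8.20, 9.33 and 9.83. MEKi replicate 4 was thus the lowest of the 8 libraries for Cd8a and the highest for Cd4. It was also the lowest for Gzma and Gzmb and the highest for Eomes. MEKi replicate 4 was the least typical library over all genes, with an array weight of 0.39 against 0.83 to 1.53 in the others. It differed from each other library by 19.6 to 37.8 times the sampling noise. The part of this in the values above was not tested.

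Gzme, a granzyme gene of the cluster that also holds Gzmb, had a pattern of its own, also named after its values were seen. It had 337, 613, 44 and 38 reads among the controls, against 110, 265, 277 and 33 reads in the MEKi libraries, with values of 8.79, 9.22, 6.90 and 6.70 and of 7.34, 8.66, 8.19 and 6.21. The 4 high libraries, control replicates 1 and 2 and MEKi replicates 2 and 3, were those with the highest means of the ERK output list, 10.39 to 10.63, against 9.03 to 9.77 in the other 4. Klra4, an Ly49 receptor gene, was at 7.97, 7.98, 6.59 and 6.58 among the controls, against 6.5, 8.10, 6.72 and 6.36 among the MEKi libraries, high in 3 of those 4. Both genes have close relatives in their clusters, so their reads are uncertain.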
